A study of Mus musculus with 2 samples.

Results

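Transcripts of 9 genes of the bone morphogenetic protein (BMP) pathway were followed through the endothelial, fibroblast and epithelial cells of mouse lung carrying injected mammary tumour cells. The members were 3 secreted ligands (Bmp2, Bmp4, Bmp6), the ligand-binding antagonist follistatin (Fst), the receptors Bmpr2 and Acvrl1, and the targets Id1, Id2 and Id3. They were taken by gene symbol, 9 of the 11407 genes listed in at least 1 of 2 count tables. Of these, 7 were listed in both tables, Fst in the niche table only and Bmp6 in the distal table only. A gene missing from a table was treated as unlisted and not as a count of 0, so Fst and Bmp6 have no niche to distal ratio.

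Both libraries came from lungs taken 7 days after Labelling-4T1 cells were injected into a vein. 4T1 cells derive from a mouse mammary carcinoma and form lung metastases, and their labelling version releases a fluorescent protein that neighbouring cells take up. Cells lacking CD45, the pan-leukocyte surface protein, were sequenced as 1 library of niche cells and 1 library of distal lung cells. Both libraries thus share the injected tumour and the CD45- selection, and neither is from a tumour-free lung. The labels give no strain, age, number of animals or genetic alteration, and not whether animals were pooled or tumour cells gated out.

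BMP ligands are secreted dimers that bring together type I receptors such as ACVRL1 (ALK1) and type II receptors such as BMPR2. The activated receptors phosphorylate SMAD1 and SMAD5, which enter the nucleus with SMAD4 and switch on the Id genes, whose products bind E proteins and keep them off DNA. In lung, this pathway is best known from the vessel wall, where loss of BMPR2 or ACVRL1 function underlies inherited vascular disease, and from the balance of self-renewal and differentiation in alveolar epithelium. Antagonists outside the cell, such as follistatin and chordin-like proteins, bind ligands and limit how far they act. Follistatin binds activins most tightly and some BMPs more weakly.

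The Id genes are direct SMAD1/5 targets, and their upstream sequence is therefore shown for the members with an entry in the RefSeq promoter table (GRCm38.p6, the assembly behind the mm10 build of these data), which matched 5 of 9 members. The 250 bases before the start of Id2 lie at chr12:25096093-25096342 on the minus strand. Those before the start of Id3 lie at chr4:136143572-136143821 on the plus strand. Capitals mark the motif GGCGCC, a GC-rich element bound by SMAD1/5 that reads the same on both strands.
Id2: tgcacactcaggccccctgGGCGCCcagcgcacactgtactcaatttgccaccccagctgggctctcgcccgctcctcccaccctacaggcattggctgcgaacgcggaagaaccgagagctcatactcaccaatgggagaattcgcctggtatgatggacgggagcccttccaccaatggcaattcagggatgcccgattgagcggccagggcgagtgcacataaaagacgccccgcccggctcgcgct
Id3: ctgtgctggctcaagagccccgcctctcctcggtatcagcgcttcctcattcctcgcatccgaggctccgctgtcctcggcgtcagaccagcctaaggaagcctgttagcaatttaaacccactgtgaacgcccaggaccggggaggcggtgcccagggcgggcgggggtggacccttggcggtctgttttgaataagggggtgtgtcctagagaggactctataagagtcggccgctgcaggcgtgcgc
The motif occurred once in the Id2 window, 231 bases before the start, and was absent from the Id3 window. Of the 5 members with an entry, Bmpr2 also held it, and Bmp4 and Bmp6 did not. Among all 32851 promoter windows of the same length, 9.59% held it. A match describes letters in this window, and its absence says nothing of more distant elements.

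After filtering, the niche library held 1423 cells and 5139368 transcript molecules (unique molecular identifiers, UMIs), with a median of 2975 UMIs per cell. The distal library held 1987 cells and 4781222 UMIs, with a median of 1975 per cell. Levels are given as CPM, a gene's UMIs in a set of cells scaled to 1000000 UMIs of that set, over the 10198 genes listed in both tables. Intervals are exact, at 95%, and cover counting error only, and UMI levels are compared between cells and not between genes. With 1 library per group there was no replicate and no test between groups. A member was called higher or lower in the niche when its ratio reached 2-fold, its interval excluded equality and it had at least 10 UMIs over both libraries. Among kept cells, 6 barcodes were shared by the libraries.

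Cells were clustered without the pathway genes and named from marker genes. Endothelial-like cells numbered 497 in niche and 1307 in distal cells, mesenchymal-like cells 769 and 385, epithelial-like cells 106 and 269, and immune-like cells 51 and 26. All 11 endothelial markers, all 12 mesenchymal markers and the 9 epithelial markers listed in both tables were detected in their own class in each library. The makeup of each class differed. The largest mesenchymal-like clusters were, in the niche, those led by Cxcl14 and Eln (199 cells), the myofibroblast-like cluster (188) and one led by Timp1 and Cxcl9 (180, against 3 distal cells). In the distal library they were the alveolar fibroblast-like (128) and myofibroblast-like (108) clusters. Most niche epithelial-like cells (81 of 106) lay in a mixed cluster led by Scgb1a1, Scgb3a1, Krt18 and Krt8, and most distal ones (216 of 269) were alveolar type 2-like. The 24 distal cells of the mixed cluster were led by other genes, among them Igfbp6, Rarres2, Dcn and Gpm6a, so no ratio is read from that cluster. Cells with under 0.1% of UMIs from Malat1, a nuclear RNA, were 44 of the 81 niche cells of the mixed cluster and 46 of the 180 of the Timp1 Cxcl9 cluster, and their part in the levels of these clusters was not tested.

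**Figure D1:**
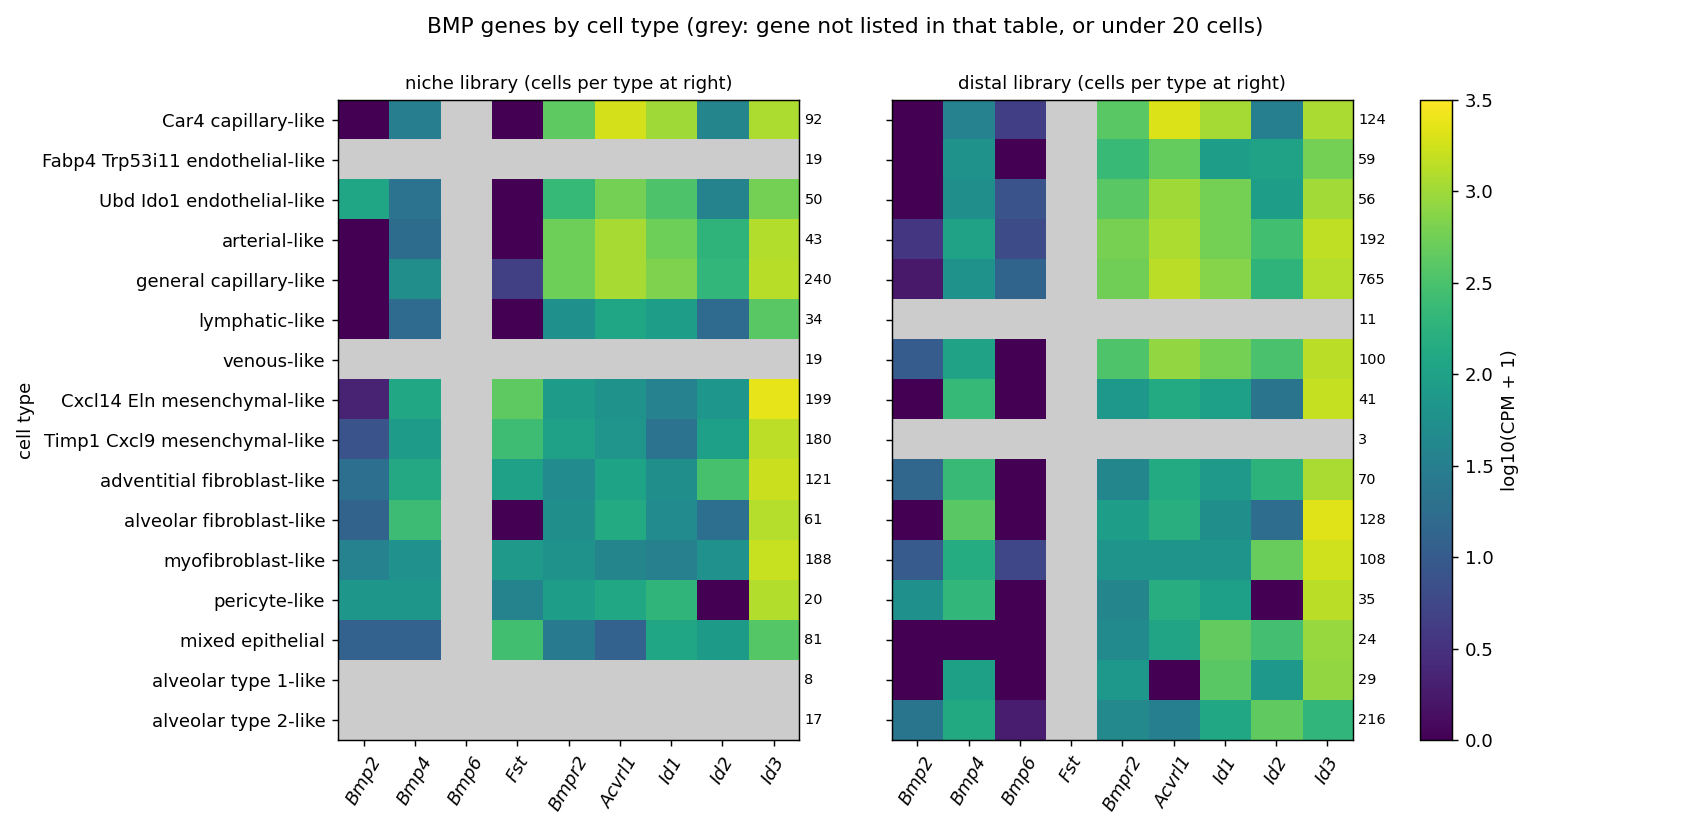
Heat map of the level of each member (columns, log10 of CPM plus 1) in each cell type (rows) of the niche (left) and distal (right) library, with the number of cells at the right of each row; grey marks a gene not listed in that table or a set of under 20 cells, and colours are to be read down a column. Acvrl1, Bmpr2 and Id1 are highest in endothelial-like types, Bmp4 in alveolar fibroblast-like cells, and Fst in the Cxcl14 Eln cluster of the niche library.

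Over all cells of a library, the ligand gene Bmp2 was higher in the niche, and the receptor gene Acvrl1 and the targets Id1 and Id2 were lower. Bmp2 was the only 1 of the 7 measured members called higher in the niche, at 20.2 CPM against 7.57 CPM (103 against 36 UMIs; log2 ratio 1.40, 0.86 to 2.01), where 5.16% of all 10198 genes were called higher. With cells thinned to 1200 UMIs, 1.41% of niche and 0.915% of distal cells had a Bmp2 UMI, with overlapping intervals. Acvrl1 (328 against 734 CPM), Id1 (193 against 425 CPM) and Id2 (113 against 239 CPM) were called lower, with log2 ratios of -1.16, -1.14 and -1.08, where 6.08% of genes were called lower. Bmpr2 (160 against 293 CPM, -0.87) and Bmp4 (76.3 against 117 CPM, -0.62) were below 0 without reaching 2-fold, and Id3 was above 0 (1394 against 1058 CPM, 0.40). The median over the 7 members was -0.87, against -0.08 over all genes tested. When each cluster was given its distal weight, the 3 lower calls ended, with ratios of -0.28 for Acvrl1, -0.21 for Id1 and -0.51 for Id2, while Bmp2 stayed at 1.39. They also ended with every cell thinned to 1200 UMIs (-0.96, -0.85 and -0.73). Endothelial-like cells were 34.9% of niche and 65.8% of distal cells. Fewer such cells and lower levels of these genes within a cell cannot be told apart in whole-library sums. The members are therefore described below within classes and types of cell.

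Within single types, few members were called. None was called in Car4 capillary-like cells (6 measured; 1.39% of 6118 genes were called higher and 1.36% lower), in general capillary-like cells (6 measured; 1.23% higher and 1.44% lower of 9014), in adventitial fibroblast-like cells (7 measured; 1.84% higher and 3.39% lower of 6671), in alveolar fibroblast-like cells (5 measured; 1.88% higher and 1.95% lower of 5586) or in pericyte-like cells (4 measured; 5.65% higher and 3.56% lower of 2052). Arterial-like cells had 1 lower call of 6 (Bmp4; 1.43% of 6153 genes were called higher and 1.69% lower). Myofibroblast-like cells had 2 lower calls of 7 (Id2 and Bmp4; 4.43% of 7546 genes were called higher and 7.17% lower). The Cxcl14 Eln cluster had 2 lower calls of 6 (Acvrl1 and Id1; 3.14% of 7800 genes were called higher and 3.65% lower). An endothelial-like cluster led by Ubd and Ido1 had 1 higher call of 7 (Bmp2; 2.99% of 4446 genes were called higher and 4.50% lower). In the mixed epithelial cluster, 4 of 5 measured members were called lower, where 16.4% of 4144 genes were lower and 5.38% higher, and these calls are not read since its cells differ between the libraries.

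**Figure D2:**
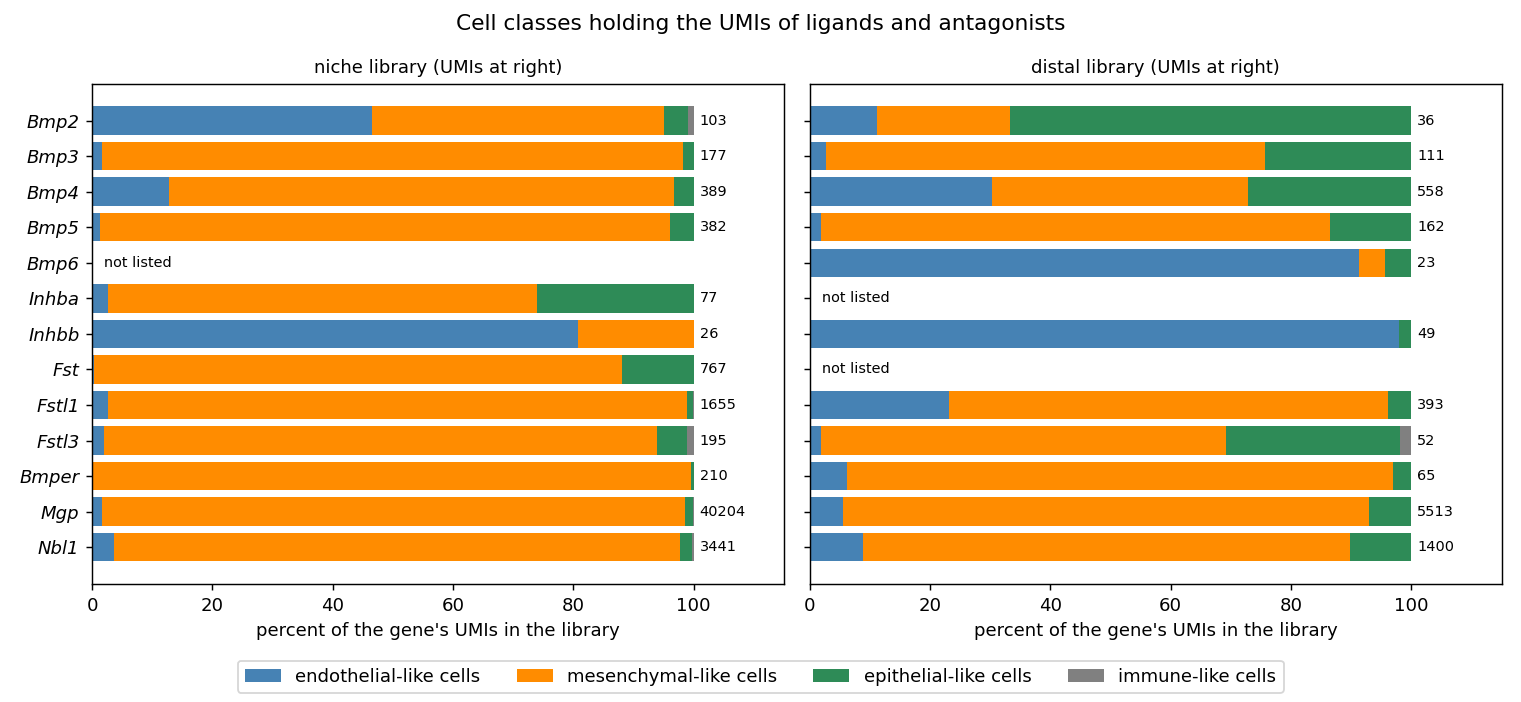
Stacked bars of the percent of each gene's UMIs that lay in endothelial-like, mesenchymal-like, epithelial-like and immune-like cells of the niche (left) and distal (right) library, with the gene's UMIs at the right. Fst, Bmp5 and Mgp lie mostly in mesenchymal-like cells, Bmp6 and Inhbb in endothelial-like cells, and Bmp4 is spread over 3 classes in the distal library.

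Bmp4, a ligand made by several lung cell types and known for its part in lung branching and alveolar repair, had its main source in fibroblasts in both libraries. Mesenchymal-like cells held 83.8% of its niche UMIs and 42.7% of its distal UMIs. In the distal library, endothelial-like cells held a further 30.3% and epithelial-like cells 27.1%, nearly all of the latter in alveolar type 2-like cells (143 UMIs in 99 of 216 cells). Among sets of at least 20 cells, Bmp4 was highest in alveolar fibroblast-like cells in both libraries, at 246 CPM in the niche (41 UMIs) and 398 CPM in the distal library (117 UMIs). In the niche library only the pericyte-like interval overlapped that level, and in the distal library only the pericyte-like and Cxcl14 Eln intervals did. No Bmp4 UMI was found in the 51 niche and 26 distal immune-like cells, which allows up to 24.3 and 54.8 CPM there.

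Within mesenchymal-like cells Bmp4 was the only member called lower in the niche, with 103 CPM (326 UMIs) against 266 CPM (238 UMIs) and a log2 ratio of -1.37 (-1.61 to -1.12). No member was called higher. In this class 7.29% of 9936 genes were called lower and 3.58% higher. At a fixed depth of 1200 UMIs, Bmp4 was found in 12.0% of niche mesenchymal-like cells (9.75% to 14.5%) and in 28.2% of distal ones (23.5% to 33.3%), against 28.2% and 38.4% before thinning, at median depths of 3559 and 2078 UMIs (45 shallower distal cells were left out). The ratio was below 0 in 5 of 5 mesenchymal-like types with 20 cells in each library, from -1.45 in pericyte-like to -0.68 in alveolar fibroblast-like cells, and its interval lay below 0 in all of these but the pericyte-like cells. Only the myofibroblast-like type reached the 2-fold call (57.5 against 148 CPM, -1.37). With clusters at their distal weights the class ratio was -0.87 and no longer a 2-fold call, and the alveolar fibroblast-like cells richest in Bmp4 were 7.93% of niche and 33.2% of distal mesenchymal-like cells.

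Endothelial-like cells had less Bmp4 than fibroblasts, at 36.5 CPM in the niche (50 UMIs) and 65.6 CPM in the distal library (169 UMIs), with a log2 ratio of -0.84 (-1.33 to -0.38). The ratio was below 0 in 4 of 4 endothelial-like types, but 3 of the 4 intervals held 0. The exception was the arterial-like type, with 2 UMIs in 43 niche cells (16.4 CPM) against 39 UMIs in 192 distal cells (102 CPM), a log2 ratio of -2.34 (-5.73 to -0.69). General capillary-like cells were close to even, at 52.4 and 59.5 CPM (-0.17, -0.85 to 0.44).

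Bmp2, the closest relative of Bmp4 and a ligand of the same receptors, was sparse, with 103 niche and 36 distal UMIs, and its sources differed between the libraries. In the distal library 24 of the 36 UMIs lay in alveolar type 2-like cells, in 17 of 216 cells (22.0 CPM). The 17 niche alveolar type 2-like cells had none, which allows up to 31.6 CPM, so a difference in this type was not detectable at this depth. In the niche library, endothelial-like cells held 46.6% of the UMIs, mesenchymal-like cells 48.5% and epithelial-like cells 3.88%. The mesenchymal share was led by myofibroblast-like cells, with 29 UMIs in 19 of 188 cells (34.7 CPM) against 2 UMIs in 108 distal cells (9.24 CPM; log2 ratio 1.61, -0.07 to 5.02), an interval that holds equality.

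Bmp2 was also the only member called higher in endothelial-like cells, at 35.0 CPM (48 UMIs) against 1.55 CPM (4 UMIs), a log2 ratio of 4.34 (3.05 to 6.43). In this class 2.12% of 9710 genes were called higher and 1.58% lower. The 48 niche UMIs came from only 7 of 497 cells, and 22 of them from 1 cell. Without that cell the log2 ratio was 3.47 (2.09 to 5.59), and after thinning to 1200 UMIs it was 2.86. The share of endothelial-like cells with a Bmp2 UMI after thinning was 1.01% in niche (0.327% to 2.33%) and 0.297% in distal cells (0.0612% to 0.865%). These intervals overlapped, so the higher call holds for summed UMIs and is not settled for the share of cells. The 4 distal UMIs lay in 4 of 1307 cells. All 7 niche cells carried a Pecam1 or Cdh5 UMI and a Trp53i11 UMI, none carried the collagen transcript Col1a2, 1 carried Krt18, and none was called a doublet. They fell in 2 small clusters. One, led by the interferon-responsive genes Ubd and Ido1, had 22 UMIs in 5 of 50 niche cells (114 CPM) and 0 in 56 distal cells. With 3 UMIs standing for the 0 this is 5.59-fold higher in the niche, without counting error in the 22 niche UMIs. The exact interval of the log2 ratio began at 2.06 and had no upper end. At 1200 UMIs per cell, 6% of niche cells (1.25% to 16.5%) and 0% of distal cells (0% to 6.72%) had a UMI, and these intervals overlapped. The other, led by Fabp4 and Trp53i11, had 26 UMIs in 2 of 19 niche cells and 0 in 59 distal cells. The large capillary-like clusters held 0 niche UMIs, in 240 general capillary-like cells (up to 5.42 CPM) and 92 Car4 capillary-like cells (up to 11.4 CPM).

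Bmp6, a ligand that endothelial cells of several organs secrete, was listed only in the distal table and had 23 UMIs there, each in a different cell. Endothelial-like cells held 21 of the 23 UMIs, or 8.16 CPM (5.05 to 12.5), against 1.12 CPM in mesenchymal-like and 0.809 CPM in epithelial-like cells. General capillary-like cells held 17 UMIs (12.3 CPM), and the remaining endothelial UMIs were spread over arterial-like (2), Car4 capillary-like (1) and Ubd Ido1 (1) cells. The order among endothelial-like types could not be read at this depth, since their intervals overlapped.

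**Figure D3:**
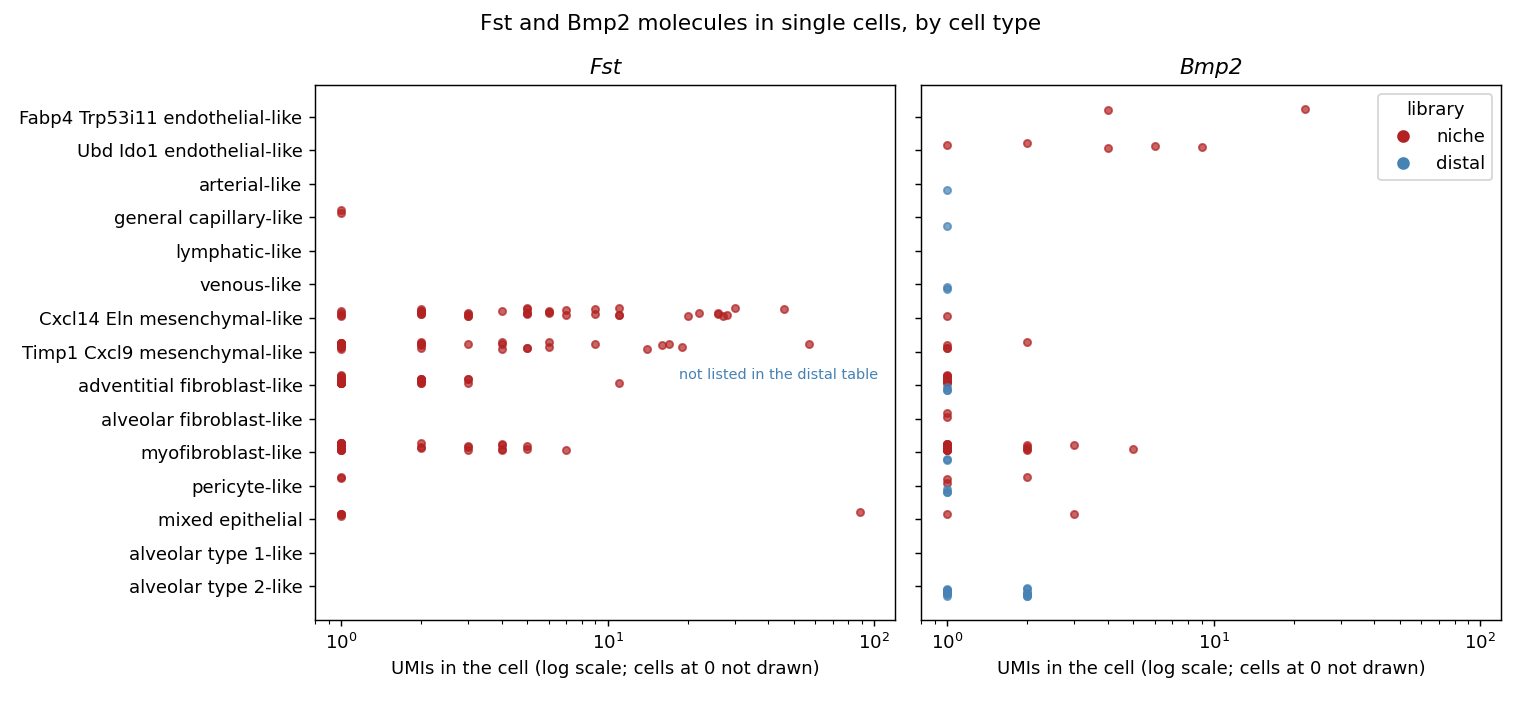
Strip plots of single cells with at least 1 UMI of Fst (left) or Bmp2 (right), with UMIs in the cell on a log axis and cell types as rows; red is niche, blue is distal, and vertical jitter within a row has no meaning. Fst, which has no distal row, reaches 57 UMIs in a mesenchymal-like cell and 88 in a single cell of the mixed epithelial cluster, and niche endothelial-like Bmp2 sits in 7 cells with up to 22 UMIs.

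Fst was a fibroblast transcript. With 767 UMIs in 134 niche cells and no row in the distal table, it had 673 UMIs (87.7%) in mesenchymal-like cells, or 213 CPM (198 to 230). The 497 niche endothelial-like cells held 2 UMIs (1.46 CPM) and the 51 immune-like cells 0, which gives the level seen in cells that are not its source. At 1200 UMIs per cell, 7.67% of mesenchymal-like cells had a UMI, against 0.402% of endothelial-like cells. Without thinning, these shares were 16.5% and 0.402%, at median depths of 3559 and 2341 UMIs.

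Fibroblast types differed in their summed Fst level. The Cxcl14 Eln cluster was highest at 424 CPM (367 UMIs in 39 of 199 cells), and no other type's interval overlapped it. The Timp1 Cxcl9 cluster followed at 259 CPM (190 UMIs in 30 of 180 cells), then adventitial fibroblast-like cells at 101 CPM (50 UMIs) and myofibroblast-like cells at 76.7 CPM (64 UMIs). Alveolar fibroblast-like cells, the type richest in Bmp4, had 0 Fst UMIs in 61 cells, which allows up to 18.0 CPM. Molecules were concentrated in few cells: in mesenchymal-like cells, 17 cells with 10 or more UMIs held 392 of the 673 UMIs, and 49 cells held 1 UMI each. In the Cxcl14 Eln cluster 11 such cells held 258 of the 367 UMIs, and 1 cell of the Timp1 Cxcl9 cluster held 57 of its 190. Cells with Fst were also deeper, with a median of 6147 UMIs against 3282 in mesenchymal-like cells without it. The epithelial value of 203 CPM rested on 1 cell of the mixed cluster, which held 88 of 92 UMIs.

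Inhba, which encodes the subunit of activin A, the ligand follistatin binds most tightly, likewise had a row in the niche table alone (77 UMIs). Of these, mesenchymal-like cells held 71.4% and epithelial-like cells 26.0%, and the myofibroblast-like cluster was the largest single source with 24 UMIs. The 77 UMIs lay in 47 cells, and 1 cell held 18 of them, so a share can rest largely on 1 cell. Inhbb, the subunit of activin B, was endothelial, with 80.8% of 26 niche UMIs and 98.0% of 49 distal UMIs in that class, at 15.3 and 18.6 CPM.

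The receptors marked the endothelium. Acvrl1, the endothelial type I receptor for the circulating ligands BMP9 and BMP10, had 86.4% of its niche UMIs and 95.6% of its distal UMIs in endothelial-like cells. Its level there was 1055 CPM in niche and 1298 CPM in distal cells (log2 ratio -0.30, -0.39 to -0.21), or -0.09 without the lymphatic-like and Ubd Ido1 clusters. It was highest in Car4 capillary-like cells, the wide thin capillary cells of the alveolus, at 1907 CPM in niche and 2096 CPM in distal cells, with no overlap with any other type, and lower in general capillary-like (1099 and 1378 CPM) and arterial-like cells (1096 and 1158 CPM). Bmpr2, the type II receptor, was at 409 CPM in niche and 497 CPM in distal endothelial-like cells (-0.28, -0.43 to -0.14). It was highest in arterial-like cells (540 and 601 CPM), whose interval overlapped that of general capillary-like cells (531 and 559 CPM) and, in the niche, of Car4 capillary-like cells (424 CPM).

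Outside the endothelium both receptors were low. Mesenchymal-like cells had 68.5 and 126 CPM of Acvrl1 (log2 ratio -0.89, -1.22 to -0.54, and -0.41 with clusters at distal weights) and 74.8 and 64.9 CPM of Bmpr2 (0.20, -0.21 to 0.65). In the same cells the summed level of 11 endothelial markers was 337 CPM in niche and 828 CPM in distal cells, and its part in the Acvrl1 ratio was not tested. Niche immune-like cells had 64.9 CPM of Acvrl1 (8 UMIs), close to the niche mesenchymal level, and the 26 distal ones none (up to 54.8 CPM). In the Cxcl14 Eln cluster Acvrl1 was at 61.2 against 136 CPM (53 against 13 UMIs; log2 ratio -1.20, -2.05 to -0.16). Epithelial-like cells had 8.83 and 33.2 CPM of Acvrl1, at most 2.56% of the endothelial level.

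**Figure D4:**
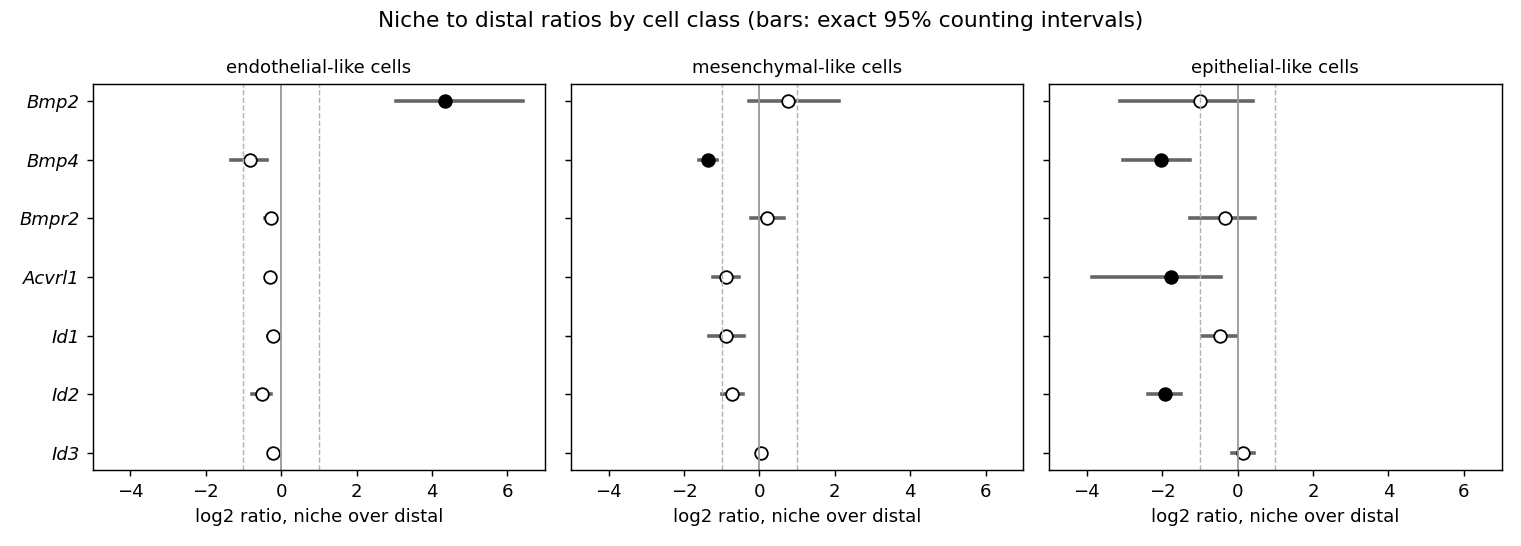
Log2 ratios of niche over distal for the 7 members listed in both tables (rows) in endothelial-like, mesenchymal-like and epithelial-like cells (panels), with bars for exact 95% counting intervals, dashed lines at 2-fold and filled points for members called. Endothelial-like Bmp2 is called higher, mesenchymal-like Bmp4 lower, and Bmp4, Acvrl1 and Id2 lower in epithelial-like cells, where the 2 libraries hold different cell types.

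The Id genes each had its own pattern of cell types. Id1 was endothelial, and Id3 was present in endothelial and mesenchymal types alike. Among the types compared, Id2 was highest in niche adventitial fibroblast-like cells, with an interval that overlapped that of arterial-like cells. In the distal library it was highest in myofibroblast-like cells, with an interval that overlapped those of alveolar type 2-like, venous-like and mixed epithelial cells. By class, Id2 was highest in niche immune-like cells (195 CPM, 24 UMIs) and in distal epithelial-like cells (413 CPM). Alveolar type 2-like cells held 487 of its 1137 distal UMIs. In endothelial-like cells all 3 Id genes were slightly lower in the niche, by less than 2-fold. Id1 was at 588 against 685 CPM (log2 ratio -0.22, -0.34 to -0.10), Id3 at 1058 against 1236 CPM (-0.22, -0.32 to -0.14) and Id2 at 128 against 183 CPM (-0.51, -0.77 to -0.26). With clusters at distal weights these were -0.15, -0.06 and -0.07, and the intervals of the latter 2 held 0. Without the lymphatic-like and Ubd Ido1 clusters, an alternative chosen after seeing the data, they were -0.01, -0.05 and -0.26.

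Id1, which encodes an inhibitor of E proteins that endothelial cells need for vessel growth, had 81.9% of niche and 87.2% of distal UMIs in endothelial-like cells. Like Acvrl1 it was highest in Car4 capillary-like cells, at 995 CPM in niche and 1079 CPM in distal cells, above every other type in both. General capillary-like cells came next (667 and 727 CPM), and arterial-like cells were at 540 and 591 CPM. Distal venous-like cells were at 594 CPM, with an interval that overlapped that of arterial-like cells, niche lymphatic-like cells at 87.7 CPM and distal Fabp4 Trp53i11 cells at 89.5 CPM. The Car4, general capillary and arterial types each had a ratio of -0.12 with an interval that held 0. In mesenchymal-like cells Id1 was at 37.4 against 68.3 CPM (log2 ratio -0.87, -1.33 to -0.40), beside 73.0 and 91.4 CPM in immune-like cells (9 and 5 UMIs). In the Cxcl14 Eln cluster it was at 34.7 against 94.4 CPM (30 against 9 UMIs; -1.50, -2.56 to -0.19), and niche pericyte-like cells were at 194 CPM (11 UMIs). The share of cells with an Id1 UMI at 1200 UMIs was 4.29% and 6.47% in mesenchymal-like cells, 7.84% and 0% in immune-like cells (4 of 51 and 0 of 24), and 42.1% and 44.8% in endothelial-like cells.

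In the Ubd Ido1 endothelial-like cells, Id1, Id3, both receptors and several further targets lay below 0 in the niche. Id1 was at 336 CPM (65 UMIs) against 583 CPM (86 UMIs), a log2 ratio of -0.79 (-1.28 to -0.31), and Id3 at 595 against 1044 CPM (-0.81, -1.17 to -0.45). Acvrl1 was at 589 against 990 CPM (-0.75, -1.11 to -0.38) and Bmpr2 at 222 against 400 CPM (-0.84, -1.45 to -0.26). None of these 4 reached 2-fold. Id2 had 7 against 13 UMIs (-1.24, -2.85 to 0.15), an interval that held 0. Of the 7 measured targets on the pathway list, 4 were called lower and 0 higher, the former against 4.50% of all genes in this type. These were the inhibitory SMAD genes Smad7 (46.5 against 203 CPM, -2.07) and Smad6 (129 against 339 CPM, -1.38), the Notch and BMP target Hey1 (72.4 against 163 CPM, -1.15) and Tmem100, a membrane protein gene downstream of ACVRL1 (388 against 1221 CPM, -1.65). The median of the 7 targets was -1.24, and that of all genes in this type -0.08. Of 19 immediate early and dissociation genes measured in the same cells, 7 were also called lower and 0 higher (median -0.80), and their part in these ratios was not tested. In general capillary-like cells, none of the 10 measured targets was called in either direction (median -0.01, against -0.03 for all genes).

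**Figure D5:**
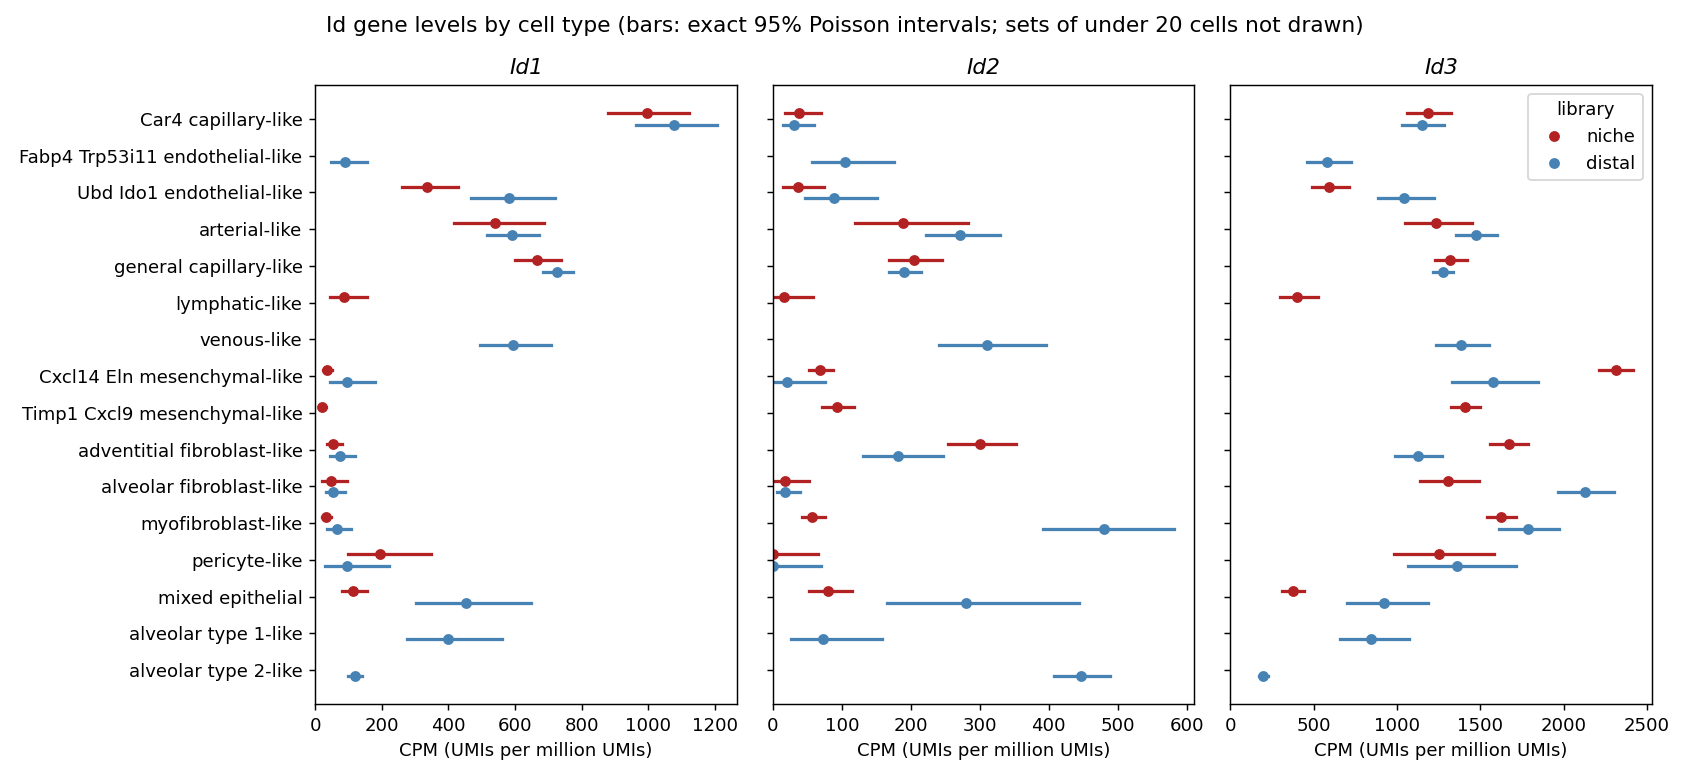
Levels of Id1, Id2 and Id3 (panels, CPM on linear axes that differ between panels) by cell type (rows), with red for niche and blue for distal and bars for exact 95% Poisson intervals; sets of under 20 cells are not drawn. Id1 peaks in Car4 capillary-like cells near 1000 CPM in both libraries, distal myofibroblast-like Id2 (480 CPM) lies far above its niche value (57.5 CPM), and Id3 crosses over between Cxcl14 Eln and alveolar fibroblast-like cells.

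Id3 had the widest distribution. It was in 84.7% of niche and 72.2% of distal mesenchymal-like cells, or 66.8% and 63.2% at 1200 UMIs per cell. In immune-like cells these shares were 19.6% and 7.69%, or 11.8% and 8.33% after thinning, at median depths of 2014 and 1951 UMIs. Its mesenchymal level was 1747 CPM in niche and 1681 CPM in distal cells (log2 ratio 0.05, -0.03 to 0.14). This even total covered opposite summed levels among types. Id3 was above 0 in the Cxcl14 Eln cluster, at 2313 against 1573 CPM (0.55, 0.32 to 0.80), and in adventitial fibroblast-like cells, at 1669 against 1124 CPM (0.57, 0.37 to 0.78). It was below 0 in alveolar fibroblast-like cells, at 1308 against 2131 CPM (-0.70, -0.93 to -0.48). Myofibroblast-like (-0.14, -0.30 to 0.03) and pericyte-like cells (-0.11, -0.61 to 0.38) had intervals that held 0. None of the 5 reached 2-fold. At 1200 UMIs per cell, Id3 was found in 76.9% of niche and 57.6% of distal cells of the Cxcl14 Eln cluster. These shares were 63.6% and 64.1% in adventitial and 54.1% and 61.3% in alveolar fibroblast-like cells. Each pair of intervals overlapped, so the shares do not settle these differences. The Cxcl14 Eln and alveolar fibroblast-like shares ran the same way as the summed levels, and the adventitial shares were close to even. By summed level, the type with most Id3 was the Cxcl14 Eln cluster in the niche. In the distal library it was the alveolar fibroblast-like type, with an interval that overlapped that of myofibroblast-like cells (1787 CPM).

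Id2, the Id gene best known from lymphoid cells and from the tip of the embryonic lung epithelium, was the member whose level moved most within a mesenchymal type. In myofibroblast-like cells it was at 57.5 CPM (48 UMIs in 30 of 188 cells) in the niche and 480 CPM (104 UMIs in 28 of 108 cells) in the distal library, a log2 ratio of -3.05 (-3.59 to -2.56). Of the immediate early and dissociation genes measured in these cells, 2 were called lower (Fosb and Atf3) and 0 higher (median -0.67, against -0.17 for all genes), and their part in the Id2 ratio was not tested. The distal UMIs were concentrated, with 86 of 104 in 13 cells of 3 or more UMIs. The cluster also held smooth muscle-type cells, and a Myh11 or Cnn1 UMI was found in 27.7% of its niche and 24.1% of its distal cells. Among those cells Id2 was at 67.3 CPM (39.9 to 106) in the niche and 1026 CPM (804 to 1290) in the distal library. Among the others it was at 52.9 CPM (35.7 to 75.5) and 213 CPM (145 to 303). Distal Id2 was highest in the cells with smooth muscle transcripts. The split was made after the values were seen and rests on a single UMI, which shallower cells can miss. Median depth was 3559 UMIs in niche and 2078 UMIs in distal mesenchymal-like cells. The part of smooth muscle-type cells in the Id2 ratio was not tested. Adventitial fibroblast-like cells moved the other way, at 300 CPM (149 UMIs) in the niche against 182 CPM (41 UMIs) in the distal library (0.71, 0.21 to 1.26), under 2-fold. Over all mesenchymal-like cells Id2 was at 104 against 170 CPM (-0.72, with an interval below 0). Pericyte-like cells had 0 Id2 UMIs in 20 niche and 35 distal cells (up to 53.0 and 56.6 CPM), and alveolar fibroblast-like cells 3 and 5 UMIs.

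Among vessel types, the order for Id2 differed from that for Id1. Car4 capillary-like cells, highest for Id1, were low for Id2 (37.8 and 31.2 CPM), while general capillary-like (204 and 190 CPM), arterial-like (188 and 272 CPM) and distal venous-like cells (311 CPM) carried more, with intervals apart from those of the Car4 cells in each library. None of the 4 endothelial-like types compared was called for Id2. The Ubd Ido1 type was at a log2 ratio of -1.24, with an interval that held 0 (-2.85 to 0.15).

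In epithelial-like cells the class ratios set niche cells of the mixed cluster against distal alveolar type 2-like cells. Id2 (108 against 413 CPM, log2 ratio -1.92), Bmp4 (28.7 against 122 CPM, -2.04) and Acvrl1 (8.83 against 33.2 CPM, -1.76) were called lower and no member higher, where 9.20% of 8436 genes were called lower and 12.2% higher. Without the mixed cluster, an alternative chosen after seeing the data, the ratio was -1.08 for Id2 (-1.80 to -0.50), -0.62 for Bmp4 (-1.85 to 0.27) and -2.74 for Acvrl1 with an interval that held 0. Of 9 measured targets, 4 were called lower and 0 higher (median -1.33, against 0.01 for all genes), and 20 immediate early and dissociation genes had 2 lower calls and 0 higher. Besides Id2, these targets were Smad6 (4.41 against 26.7 CPM), Tmem100 (2.21 against 30.7 CPM) and Bambi, which encodes a decoy receptor (28.7 against 74.4 CPM). The receptor gene Bmpr1a (4.41 against 30.7 CPM), the ligand gene Bmp3 (6.62 against 21.8 CPM) and Bmp1 (30.9 against 71.2 CPM) were also called lower, and Mgp (1158 against 307 CPM), Fstl1 (33.1 against 12.1 CPM) and Tcf4 (99.3 against 41.3 CPM) higher. Scaling by the median gene in place of the total shifted every ratio of this class by -0.56.

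The alveolar type 2-like cells, the surfactant makers and progenitors of the alveolus, can be set side by side, though 17 niche cells were too few for a ratio by the rule used. Id2 was at 210 CPM (129 to 325; 20 UMIs) in the niche and 447 CPM (408 to 489; 487 UMIs) in the distal library, intervals that did not overlap. Id3 was at 42.1 CPM (11.5 to 108; 4 UMIs) and 198 CPM (173 to 227), also without overlap. Id1 (73.7 and 119 CPM) and Bmp4 (63.1 and 131 CPM) had overlapping intervals. Distal alveolar type 1-like cells, the flat gas-exchange cells, showed the other Id pattern, with 399 CPM of Id1 and 846 CPM of Id3, both above distal alveolar type 2-like cells, and 72.5 CPM of Id2, below them.

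Among the other ligands and antagonists, fibroblast types were the main sources of some, such as Bmp5 and Mgp. Others, such as Bambi and Bmp3, were also found in distal epithelial-like cells. Within mesenchymal-like cells, most antagonists were called in neither direction. Of 14 BMP ligand genes, 5 were listed in both tables, and of 20 antagonist genes, 11. Over all cells, 3 of 5 ligands and 6 of 11 antagonists were called higher and none lower (medians 1.14 and 1.09, against -0.08 for all genes), and mesenchymal-like cells were 54.0% of niche and 19.4% of distal cells. Within mesenchymal-like cells 0 of 5 ligands were higher and 1 was lower, and 1 of 11 antagonists was higher and 1 lower (medians -0.42 and -0.30, against -0.16). The antagonist called higher was Mgp, matrix Gla protein, a matrix protein that binds BMP2 and BMP4, at 12368 against 5404 CPM (log2 ratio 1.19, 1.15 to 1.24). Mgp was also called higher in endothelial-like cells, at 466 against 117 CPM (1.99, 1.79 to 2.20), where 2 of 7 antagonists were higher and 0 lower (median -0.01). The other was Twsg1, which binds BMPs together with chordin, at 14.6 against 6.99 CPM (20 and 18 UMIs; 1.06, 0.07 to 2.07). The summed level of 12 mesenchymal markers in endothelial-like cells was 544 CPM in niche and 227 CPM in distal cells, and its part in the endothelial Mgp ratio was not tested. The antagonist called lower was Chrdl1, a chordin-like ligand trap, at 10.5 against 30.2 CPM (-1.53, -2.31 to -0.74).

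Single fibroblast types stood out as sources. Bmp5, a ligand of the BMP5 to BMP7 branch, was led by myofibroblast-like cells, with 43.2% of its UMIs in each library. Bmper, a regulator that binds BMPs in the matrix of vessels, lay in alveolar fibroblast-like cells in the distal library (81.5% of 65 UMIs) and in the Timp1 Cxcl9 and Cxcl14 Eln clusters in the niche (41.0% and 28.6% of 210 UMIs). Gdf10, a relative of BMP3, was led by adventitial fibroblast-like cells, with 75.3% of 73 niche and 53.8% of 26 distal UMIs.

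In endothelial-like cells, 0 of 8 receptors and co-receptors, 0 of 7 SMAD and SMURF genes and 0 of 10 targets were called in either direction, with medians of -0.16, -0.11 and -0.48 against -0.04 for all 9710 genes. The co-receptor gene Eng was at 1056 against 1462 CPM (-0.47), Smad6 at 358 against 509 CPM (-0.51) and Hey1 at 196 against 359 CPM (-0.87). In mesenchymal-like cells 0 of 10 receptors and 0 of 7 SMAD and SMURF genes were called, with medians of -0.20 and -0.04. Of 11 targets there, 2 were lower and 0 higher (median -0.87, against -0.16 for all genes), the transcription factor gene Atoh8 (8.56 against 23.5 CPM, -1.46) and Tmem100 (59.9 against 123 CPM, -1.04). The E proteins that Id proteins bind, Tcf3, Tcf4 and Tcf12, were called in neither direction in both classes. Among proteases, Pcsk5, a convertase that cuts ligand precursors, was lower in endothelial-like cells (42.3 against 86.2 CPM, -1.02), and Bmp1, which cuts chordin, was higher in mesenchymal-like cells (44.7 against 20.2 CPM, 1.12).

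Across 32 sets of cluster and library with at least 20 cells, the genes most like each member were found by Pearson correlation of log2(CPM + 10), given here as a description over sets that share 2 libraries and their depth. Acvrl1 and Bmpr2 ran together (r = 0.91), and each correlated with Id1 (0.72 and 0.76). Acvrl1 was most like BC028528, Tmem100 and Itm2b (0.94, 0.94 and 0.93), and Bmpr2 most like Mapk3, Cyyr1 and Smad6 (0.93, 0.92 and 0.91). Id1 was most like the endothelial junction gene Esam, the caveolin gene Cav2 and Tspan13 (0.90, 0.89 and 0.89). Id3 was most like Tgfb1i1, Sgce and Nucb1 (0.88, 0.88 and 0.84), and its correlation with Bmp4 was 0.62. Bmp4 was most like Ubqln2, Grk5 and Tceal1 (0.77, 0.77 and 0.76). Id2 (Baiap2, Mocs1 and Pon3, 0.68, 0.67 and 0.66) and Bmp2 (Arhgap42, Tmem51 and B3glct, 0.69, 0.64 and 0.64) had no gene as close. The Id genes were weakly related to each other, with r of 0.25 for Id1 and Id2, 0.13 for Id1 and Id3 and -0.02 for Id2 and Id3.

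Id levels in cells with and without a ligand or antagonist transcript differed by gene and library. Niche mesenchymal-like cells with a Bmp4 UMI had 2019 CPM of Id3 (1931 to 2111), against 1626 CPM (1573 to 1680) in those without. In distal mesenchymal-like cells the values were 1679 and 1683 CPM. The 7 niche endothelial-like cells with Bmp2 had 88.8 CPM of Id3 (18.3 to 259), against 1082 CPM (1027 to 1139) in the other 490, and 266 CPM of Id1 against 596 CPM. Niche mesenchymal-like cells with Fst had 1536 CPM of Id3 (1449 to 1628), against 1812 CPM (1759 to 1867) in those without. These groups differ in cell type and depth, and their part in the values was not tested.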

How the data were processed

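Single-cell RNA sequencing of 1 niche and 1 distal library was analysed. The labels' protocols name Chromium Single Cell 3' library chemistry. Cell Ranger 2.1.1, R 3.4.1 and mm10 are given by the submitters' processing notes. The values deposited by the authors are UMI counts, unscaled, per gene and barcode. How the niche and distal fractions were sorted is not given in the sources used here. The lowest listed gene had 10 UMIs (niche) and 12 UMIs (distal).

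A cell needed at least 500 genes and at most 10% mitochondrial UMIs (50 niche and 9 distal barcodes were left out). Cell totals were set to 10000 before the log. The 2000 variable genes lost 20 pathway genes, and 20 components and 15 neighbours gave 19 Leiden clusters at resolution 1 (scanpy 1.11.5, igraph 0.11.9, scipy 1.17.1, numpy 2.4.6 and pandas 2.3.3, under Python 3.11.15). Cluster names rest on at least 3 markers found in 25% of cells. Scrublet doublets (10 niche and 27 distal) were kept. UMIs were summed per class or type with at least 20 cells in each library. Log2 ratios used sums scaled to the set total with 0.5 UMI added. Their intervals are exact conditional binomial, those of CPM exact Poisson and those of shares exact Clopper-Pearson. A sum of 0 allows 3 UMIs. No p-value was computed. On simulated counts, 40% of 2-fold and 100% of 4-fold higher genes were called in endothelial-like cells (9710 genes).

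Named genes were all members with 10 UMIs, list genes with 30 UMIs that were called in a class, and the 3 genes most like each member with 100 UMIs. Uncalled list genes, sources of ligands and antagonists, and genes named within types were chosen after their values were seen. The members and lists were chosen with earlier results of these data known. Alternatives were other cluster settings, cell filters, depth, scaling, weights and UMI minimums, and leaving out clusters.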

Additional observations from a re-analysis of the deposited data

How the results depend on the processing

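Each library is the only one of its group, so no library could be left out. No paired analysis was possible because each group has 1 library and no result comes from a test. Over 14 alternative settings, 87 of 94 alternative counts of called members stayed within 1.5 times of the count given, and 7 did not. Over all cells, 3 members were called lower, and 0 with cells thinned to 1200 UMIs and 0 with clusters at distal weights. In mesenchymal-like cells, the count of 1 lower became 2 (Id1 added, at -1.02) with pathway genes used to cluster and 2 at resolution 0.5, and 0 at distal weights, where the count higher went from 0 to 1 (Bmp2, 1.18). In epithelial-like cells, scaling by the median ratio raised the count lower from 3 to 5. Of 327 alternative values of single ratios, 276 moved by less than their interval and 51 by more. Of 28 ratios, 22 kept 1 sign throughout. Epithelial Id3 ranged from -1.68 to 0.38 and epithelial Id1 from -1.01 to 0.30. Depth limits the sparse members Bmp2 and Bmp6 and all niche alveolar type 1-like and type 2-like values.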

Other observations

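Bmp4 and Fst were highest in different fibroblast types of the niche, and other types carried both. Alveolar fibroblast-like cells had the highest Bmp4 level (246 CPM) and 0 Fst UMIs in 61 cells, while the Cxcl14 Eln cluster, the highest for Fst (424 CPM), had 126 CPM of Bmp4 (109 UMIs, against 41 in alveolar fibroblast-like cells) and the highest Id3 level (2313 CPM). Adventitial fibroblast-like cells had 129 CPM of Bmp4 and 101 CPM of Fst. The Timp1 Cxcl9 cluster, second for Fst among fibroblast types, had 81.9 CPM of Bmp4 and 1408 CPM of Id3. Bmp3, a BMP family member that acts mainly as an antagonist through type II receptors, was highest in alveolar fibroblast-like cells in the niche (270.0 CPM of Bmp3, 45 UMIs) and lay in the same type in the distal library (163 CPM of Bmp3, 48 UMIs).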
